A study of Canis lupus familiaris with 28 samples.

Results

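Gene expression was compared between primary oral malignant melanomas (OMMs) of 2 retriever breeds, 8 from Golden Retrievers and 5 from Labrador Retrievers. These 13 tumours were chosen from the 28 of the series by the breed given in their labels. The 8 Golden Retriever OMMs were 4 that metastasised (M) and 4 that did not (NM), and the 5 Labrador Retriever OMMs were 3 M and 2 NM. The other 15 tumours came from cross bred dogs and from 7 further breeds, and they are given below only as a background range. All tumours were formalin-fixed, paraffin-embedded (FFPE) biopsies from pet dogs, and each was hybridised to 1 Canine Gene 1.1 ST array, so that the tumour was the replicate. The sex, the age and the RNA integrity of individual dogs were not used here, since no label ties them to an array. The authors list them by dog and breed. In that list several Golden Retriever tumours had better RNA integrity than every Labrador Retriever tumour, and the others did not. Breed and RNA integrity were therefore not told apart here. The part of sex, age and RNA integrity in the differences below, including those between Golden Retriever tumours, was not tested.

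The Golden Retriever and the Labrador Retriever share a name and a working history, but they are separate closed breeding populations. OMM arises from melanocytes of the oral mucosa, the cells that make melanin in organelles called melanosomes under the control of the transcription factor MITF. A biopsy also holds oral epithelium, stroma, vessels and leukocytes, and in such bulk tissue fewer cells of a type and less RNA per cell cannot be told apart. FFPE tissue yields fragmented RNA, and most probe groups on the array gave low signal. A Transcript cluster is the array's gene-level group of probes, and its value is a log2 expression value in which 1 unit is a doubling of signal. Of 32391 Transcript clusters, 74.1% had a mean under 2 over the 13 tumours and 4.75% had a mean above 4.

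The labelled tissue was checked against melanocyte markers. PMEL, which builds the melanosome fibrils, was at 4.81, 3.42 and 6.74 in the Labrador Retriever M tumours and at 2.84 and 3.52 in the NM tumours, and in Golden Retriever tumours the lowest, median and highest values were 2.73, 4.95 and 6.55. The melanosome protein GPNMB ranged from 5.35 to 7.81 in Golden Retriever and from 4.47 to 8.36 in Labrador Retriever tumours. Both markers were therefore detected over the same range in the 2 breeds, while the melanocyte antigen MLANA lay under 2 in 8 of the 13 tumours and the pigment enzyme TYR in 9.

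With metastatic status in the model, 7 Transcript clusters differed between the breeds at an adjusted p under 0.05 (limma with Benjamini-Hochberg adjustment over all 32391). Of these, 5 were higher in Golden Retriever tumours, 0.0154% of all tested, and 2 were lower, 0.00617%. All 7 separated the breeds with no overlap between the 8 and the 5 values. Over all Transcript clusters, 0.426% (138) had every Golden Retriever value above every Labrador Retriever value and 0.719% (233) had every one below. Only 2 of the 7 have a gene symbol in the array annotation, SMIM15 and RPS10.

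SMIM15, which encodes a small integral membrane protein, showed the strongest breed difference among annotated genes. It was at 1.69, 1.48 and 1.59 in the Labrador Retriever M tumours and at 1.13 and 1.16 in the NM tumours. In the Golden Retriever tumours it had a lowest value of 4.38, a median of 6.26 and a highest value of 6.79. Every Golden Retriever tumour thus had clear signal for SMIM15 and every Labrador Retriever tumour sat near the bottom of the array's scale. Since the Labrador Retriever values lay where the array gives little signal, no fold is given here or for other genes at that level. The difference was 4.57 ± 0.35 (SE) on the log2 scale (adjusted p = 0.000535), and it was 4.59 among M and 4.55 among NM tumours. SMIM15 stayed past the threshold when each of the 13 tumours was left out in turn (adjusted p from 6.06e-05 to 0.00596). With only the 4 and 2 NM tumours it had an adjusted p of 0.212, and with only the M tumours one of 0.0351.

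Tumours of other breeds fell at both levels of SMIM15. The Border Collie, Bullmastiff and Cocker Spaniel tumours had values of 6.42, 6.17 and 5.67, within the Golden Retriever range. The 2 Dachshund tumours, at 3.57 and 2.84, and the Great Dane tumour, at 2.26, lay between the 2 retriever breeds. The 7 cross bred tumours lay between 1.26 and 1.45, and the Bouvier des Flandres and Irish Terrier tumours were at 1.39 and 1.40, all within the Labrador Retriever range. The high level was therefore not particular to the Golden Retriever, and with 1 or 2 tumours per other breed no test of those breeds was made. These tumours also differed in the share of Transcript clusters above a log2 value of 4, described below. That share was 5.80%, 6.04% and 5.51% in the Border Collie, Bullmastiff and Cocker Spaniel tumours. Dachshund tumours had 5.05% and 5.19%, the Great Dane tumour 5.29% and the Irish Terrier tumour 5.08%. The Bouvier des Flandres tumour had 4.85% and cross bred tumours had 4.30% to 4.91%. The part of this share in their SMIM15 levels was not tested.

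RPS10, a protein of the small ribosomal subunit, was the other annotated gene. Its values were 7.31, 6.83 and 6.75 in Labrador Retriever M tumours and 6.48 and 6.92 in NM tumours, against a lowest value of 7.55, a median of 7.94 and a highest of 8.14 in Golden Retriever tumours. The breeds did not overlap, though the gap between the nearest tumours was small. The difference was 1.04 ± 0.15 (SE), or 2.06-fold (adjusted p = 0.047). Ribosomal protein genes have many near-identical processed copies in mammalian genomes, so probes for RPS10 may also read such copies. RPS10 passed the threshold in only 2 of the 13 fits that left out 1 tumour (adjusted p from 0.0107 to 0.155).

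The other 3 Transcript clusters that were higher in Golden Retriever tumours carry no gene symbol. Transcript cluster 14360601 was at 3.05, 2.01 and 5.30 in Labrador Retriever M tumours and at 1.27 and 1.74 in NM tumours, and from 6.03 to 8.59 with a median of 7.80 in Golden Retriever tumours (difference 5.02 ± 0.60, adjusted p = 0.0228). Transcript cluster 14341128 was at 3.13, 5.76, 3.96, 3.24 and 1.62 in the Labrador Retriever tumours in the same order, and from 6.24 to 8.68 with a median of 7.44 in Golden Retriever tumours (difference 4.01 ± 0.54, adjusted p = 0.047). Transcript cluster 14264358 was at 3.68, 3.54, 3.73, 2.10 and 3.01 against 4.99 to 7.24 with a median of 6.45 (difference 3.05 ± 0.42, adjusted p = 0.047). The Labrador Retriever tumours varied widely among themselves at the first 2 of these and less so at the last.

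Both Transcript clusters that were lower in Golden Retriever tumours were dim and also without a symbol. Transcript cluster 14402133 was at 2.99, 3.22, 3.07, 3.34 and 3.37 in Labrador Retriever tumours and from 1.46 to 2.26 with a median of 2.19 in Golden Retriever tumours (difference -1.13 ± 0.13, adjusted p = 0.0219). Transcript cluster 14479241 was at 2.79, 2.79, 2.59, 2.51 and 3.43 against 1.69 to 1.96 with a median of 1.81 (difference -1.02 ± 0.14, adjusted p = 0.047). The Golden Retriever tumours were the more uniform group at the latter.

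**Figure D1:**
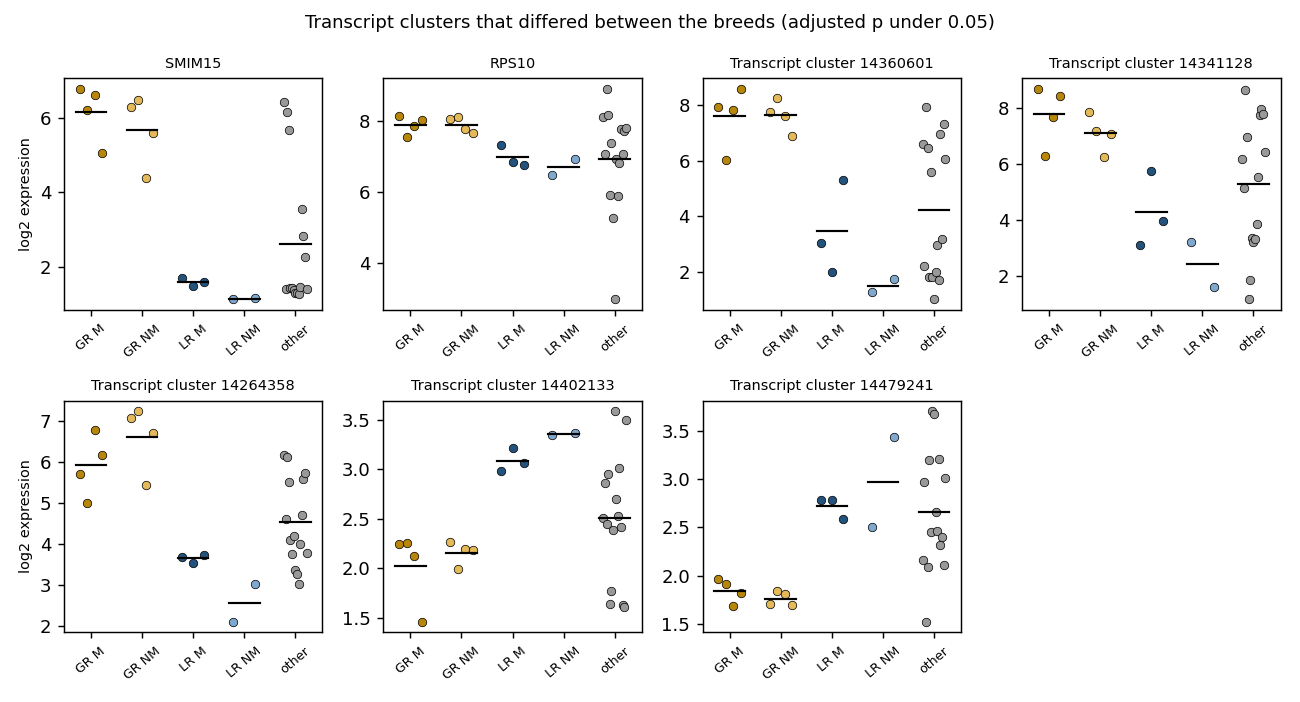
Log2 expression (vertical axes) of the 7 Transcript clusters that differed between the breeds, for Golden Retriever (GR) and Labrador Retriever (LR) tumours by metastatic status and for the other 15 tumours. Each point is 1 tumour and each bar is the mean of its group. SMIM15 was between 4.38 and 6.79 in all 8 GR and between 1.13 and 1.69 in all 5 LR tumours, and the other tumours lay at both levels.

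The count of breed differences rested heavily on single tumours. Without Golden Retriever M replicate 14, 2339 Transcript clusters passed the threshold, 931 higher and 1408 lower in Golden Retriever tumours, and all 7 above were among them. Leaving out any of the other 12 tumours gave between 1 and 11. The array of M replicate 14 had a median correlation of 0.79 with the other Golden Retriever arrays and of 0.87 with the Labrador Retriever arrays, and NM replicates 6 and 9 also correlated better with the other breed (0.88 each) than with their own (0.84 and 0.85). The 5 other Golden Retriever arrays correlated better with their own breed (0.89 to 0.90) than with Labrador Retriever arrays (0.75 to 0.82). The Golden Retriever group was thus the more mixed of the 2 groups, with a range of pairwise correlations from 0.74 to 0.93 over 28 pairs against 0.84 to 0.89 over 10 Labrador Retriever pairs.

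**Figure D2:**
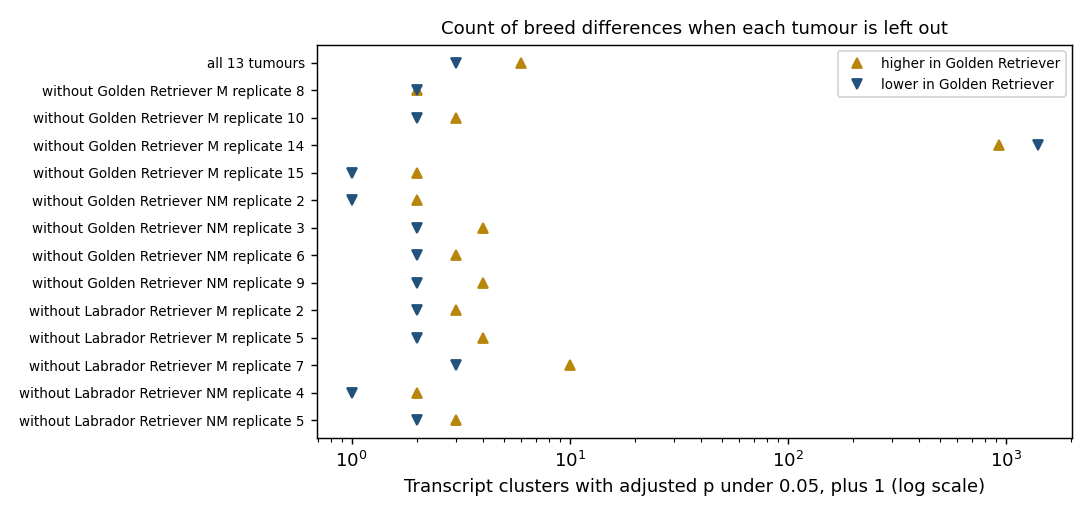
Number of Transcript clusters with an adjusted p under 0.05 between the breeds, plus 1, on a log scale (horizontal axis), for all 13 tumours and with each tumour left out (vertical axis). Upward triangles count those higher and downward triangles those lower in Golden Retriever tumours. The fit without Golden Retriever M replicate 14 gave 931 higher and 1408 lower, and every other fit gave 11 or fewer in all.

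The same 3 Golden Retriever tumours stood apart in an array-level measure. The share of Transcript clusters above a log2 value of 4, a measure of how many probe groups gave clear signal, was between 4.82% and 5.35% in Labrador Retriever tumours and averaged 5.02% ± 0.25 (SD, n = 5). In Golden Retriever tumours it averaged 5.75% ± 0.59 (SD, n = 8), with 5 tumours between 5.91% and 6.40% and the other 3, M replicate 14 and NM replicates 6 and 9, at 5.05%, 5.28% and 4.87%. The breed difference with status in the model was 0.73 percentage points (two-sided exact permutation of breed within status, 525 arrangements, p = 0.0457, and 0.0457 after adjustment over 4 array measures). The first principal component of all 28 arrays, which carried 34.9% of the variance, separated the breeds in the same way (from -33.5 to -12.2 in Labrador Retriever and from -22.5 to 89.2 in Golden Retriever tumours, exact permutation p = 0.0152, adjusted p = 0.0305). Golden Retriever minus Labrador Retriever, the array median differed by -0.061 and the array SD by 0.057 (exact permutation, adjusted p = 0.0305 and 0.0457).

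**Figure D3:**
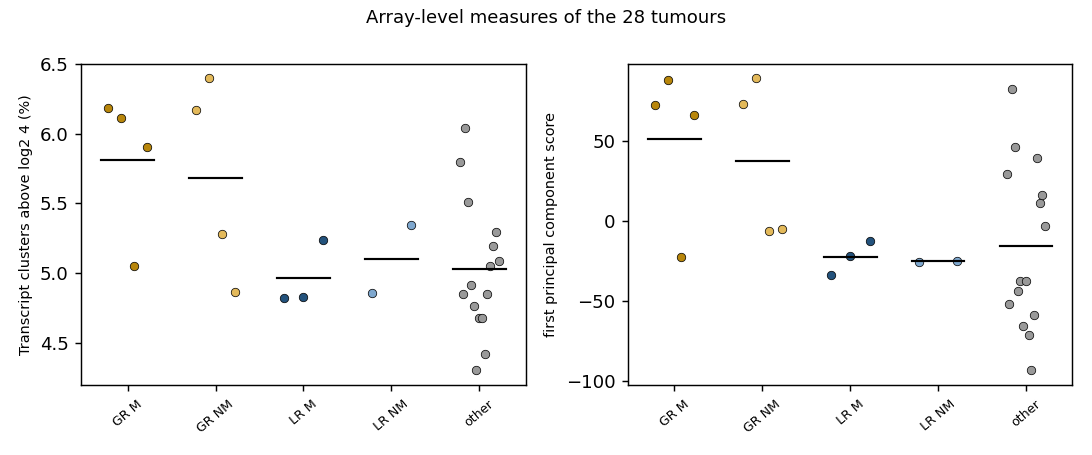
Share of Transcript clusters above log2 4 in percent (left) and score on the first principal component (right) for each tumour, by breed and metastatic status, with the mean of each group as a bar. In the left panel 5 of 8 Golden Retriever (GR) tumours lay above all 5 Labrador Retriever (LR) tumours, and in the right panel 7 of 8 did.

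This measure differed between the breeds, and the comparison was repeated with it as a covariate and in a subset of tumours. The covariate comes from the same expression values. The subset was chosen after seeing the data and holds fewer tumours. Neither fit can therefore tell the part of this measure from that of breed or of a smaller group. With the share above log2 4 as a covariate, 1 Transcript cluster passed the threshold, SMIM15 (difference 4.23, adjusted p = 0.0244). With only the 3 Golden Retriever tumours inside the Labrador Retriever range of that share, again 1 passed, SMIM15 (difference 4.19, adjusted p = 0.0419). The other 6 kept their direction in both of these fits but not their call.

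Below the threshold, the values leaned to one side. At an unadjusted p under 0.05, 7.8% of Transcript clusters (2525) were higher and 15.2% (4925) were lower in Golden Retriever tumours, so that 33.9% of these 7450 were higher. Centring each array on its median moved that share to 51.0%, and the count at the adjusted threshold was again 7, of which 6 were shared. The median difference over all Transcript clusters was -0.07, with 38.6% higher in Golden Retriever tumours. At an adjusted p under 0.1, 399 Transcript clusters were listed, 124 higher and 275 lower.

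Among genes with mean expression above the median, the smallest p after SMIM15 and RPS10 belonged to CZIB, a zinc-binding protein. CZIB was at 1.65, 1.42 and 1.73 in Labrador Retriever M tumours and at 2.11 and 1.58 in NM tumours, against a lowest value of 2.21, a median of 3.54 and a highest of 4.04 in Golden Retriever tumours (difference 1.79 ± 0.26, adjusted p = 0.057). The breeds did not overlap, but the nearest tumours, both NM, were close at 2.11 and 2.21. BTF3, which forms part of the nascent polypeptide-associated complex, was at 1.88 to 2.30 in Labrador Retriever and 2.83 to 4.64 in Golden Retriever tumours (difference 1.63, adjusted p = 0.0901). ARF1, a small GTPase of Golgi vesicle traffic, had a difference of 1.44, and RWDD1 had one of 1.16, each with an adjusted p of 0.0901. The chromatin and RNA genes MLLT3 (elongation complex), SUDS3 (SIN3 corepressor) and EXOSC10 (nuclear RNA exosome) had smaller differences of 0.68, 0.60 and 0.55 at the same adjusted p, and none of their 8 Golden Retriever values overlapped the Labrador Retriever values.

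The genes with the smallest p in the other direction were also dim in both breeds. PTGDR2, a prostaglandin D2 receptor of leukocytes, was at 2.26 to 2.58 in Labrador Retriever and 1.53 to 2.06 in Golden Retriever tumours (difference -0.61, adjusted p = 0.0901). NEURL3, a ubiquitin ligase, was at 3.23 to 3.69 against 2.01 to 3.03 (difference -1.03). WNT7A, a secreted Wnt ligand, was at 2.65 to 3.07 against 1.42 to 2.72, where Golden Retriever M replicate 14 was the tumour that overlapped the Labrador Retriever range (difference -0.98). The sodium channel subunit SCNN1D, the homeobox gene UNCX, the vitamin C transporter SLC23A1 and the nuclear IκB protein NFKBID had differences of -0.48, -0.48, -0.56 and -0.48. All of these had an adjusted p of 0.0901 and none passed the threshold, and none of the named genes that were lower had a median above 4 in either breed.

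Genes were next described by lists of shared function. Read at 1 Transcript cluster per gene, 7526 of 16295 genes were higher in Golden Retriever tumours and 8769 were lower, with 1797 and 2017 at an unadjusted p under 0.05 and a median difference of -0.03. The lists of housekeeping machinery lay above this background, but they were also brighter than it. The median level was 1.64 over all genes, 5.44 for cytosolic ribosomal proteins, 2.54 for oxidative phosphorylation subunits and 2.19 for translation factors. Among the brightest 40% of Transcript clusters, 46.5% of those at an unadjusted p under 0.05 were higher, against 33.9% over all. No background of like brightness was drawn, so the part of brightness was not tested. Of 62 cytosolic ribosomal protein genes, 54 were higher and 8 lower in Golden Retriever tumours, with 34 higher and 1 lower at an unadjusted p under 0.05, 5 with no overlap, 1 past the adjusted threshold (RPS10) and a median difference of 0.81. The mean level of the list was 5.26 to 6.11 in Golden Retriever and 4.69 to 5.24 in Labrador Retriever tumours, so the breeds met almost edge to edge.

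Within that list, RPS6, the small-subunit protein phosphorylated downstream of mTOR, had the widest difference. It was at 4.96, 4.16 and 4.85 in Labrador Retriever M tumours and at 2.68 and 4.80 in NM tumours, against a lowest value of 5.86, a median of 7.34 and a highest of 8.29 in Golden Retriever tumours (difference 3.0 ± 0.47, 8.01-fold, adjusted p = 0.0901). RPL6 had a difference of 2.09 and RPS4X one of 1.11 at the same adjusted p, and 1 or more tumours overlapped for each. RPL29, whose Transcript cluster shares all its values with another, was among the brightest genes at 9.0 to 10.39 in Golden Retriever and 9.16 to 9.71 in Labrador Retriever tumours, and its difference was 0.38 (adjusted p = 0.173).

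Other machinery of protein synthesis and energy supply had the same direction. Of 49 translation initiation and elongation factors, 47 were higher in Golden Retriever tumours, 24 of them and none of the lower ones at an unadjusted p under 0.05 (median difference 0.41). EIF4E, the cap-binding protein, had a difference of 1.07, EIF4B, a cofactor of the initiation helicase, 1.46 and EIF3D, a subunit of the initiation scaffold, 1.10, each with an adjusted p of 0.0901. EIF6, a factor of the large ribosomal subunit, had one of 1.29 (adjusted p = 0.0959). Of 60 oxidative phosphorylation subunits, 51 were higher, with 30 higher and 0 lower at an unadjusted p under 0.05 (median difference 0.55). The mean level of the oxidative phosphorylation list was 2.71 to 3.81 in Golden Retriever and 2.45 to 2.70 in Labrador Retriever tumours.

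UQCRH, a hinge subunit of complex III, was at 3.05, 3.5 and 3.38 in Labrador Retriever M and 3.80 and 3.96 in NM tumours, and in Golden Retriever tumours its lowest, median and highest values were 3.78, 6.51 and 7.20 (difference 2.59 ± 0.53, adjusted p = 0.0901). Its breed difference was 3.49 among M and 1.44 among NM tumours. ATP5F1B, the catalytic beta subunit of ATP synthase, was at 4.70 to 5.37 against 5.27 to 6.82 (difference 1.09, adjusted p = 0.0901). Of 38 proteasome subunits, 33 were higher in Golden Retriever tumours, 14 of them at an unadjusted p under 0.05 (median difference 0.47), and PSMA7, of the catalytic core, had a difference of 1.47 (adjusted p = 0.112). Of 68 mitochondrial ribosomal proteins, 49 were higher, 14 higher and 3 lower at an unadjusted p under 0.05, with a smaller median difference of 0.16.

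The share of Transcript clusters above log2 4 moved with these lists. With that share as a covariate, 14 of 62 cytosolic ribosomal proteins were higher at an unadjusted p under 0.05 in place of 34, and the median difference was 0.41. In the same fit, 8 oxidative phosphorylation subunits, 8 translation factors and 3 proteasome subunits were higher at that level, with median differences of 0.17, 0.17 and 0.19. In this fit 55 of the 62 ribosomal protein genes were higher, against 54 without the covariate, and the median of that list was the largest of these 4.

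Olfactory receptors, most of which are expressed chiefly in the nose, lay on the other side. Of 590 measured, 496 were lower and 94 higher in Golden Retriever tumours, with 93 lower and 0 higher at an unadjusted p under 0.05. Over all Transcript clusters 15.2% were lower and 7.8% higher at that level. Read at 1 Transcript cluster per gene, 2017 of 16295 genes were lower and 1797 higher. The share of receptors called lower was near the first background and somewhat above the second, while 0 were called higher. The median difference was -0.11, and the median level of the list, 1.24, was near the bottom of the scale. OR4C1 was at 1.59 to 1.81 in Labrador Retriever and 1.16 to 1.45 in Golden Retriever tumours (difference -0.37, adjusted p = 0.0901). After centring each array on its median, 396 of the 590 were lower and the median difference was -0.05.

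**Figure D4:**
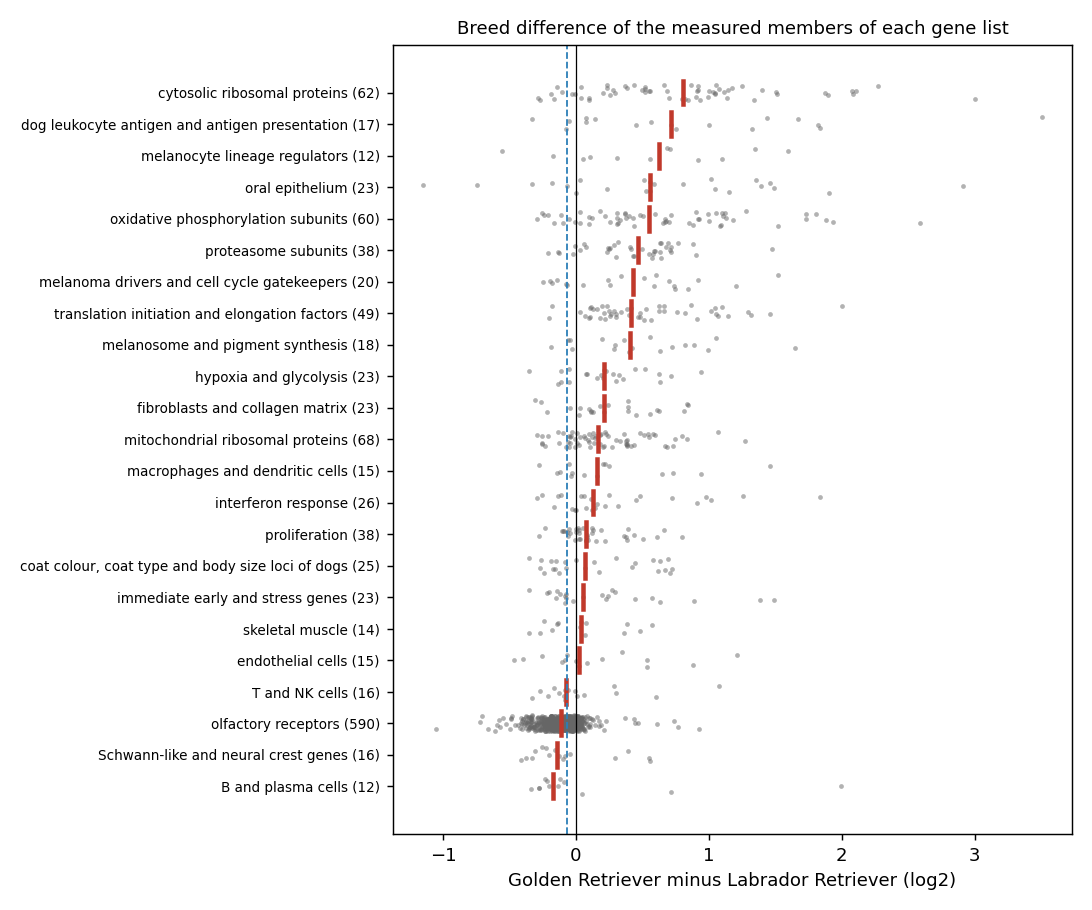
Difference between Golden Retriever and Labrador Retriever tumours in log2 units (horizontal axis) for each measured member of the gene lists with 10 or more members (vertical axis, number measured in brackets). Red bars mark the median of each list, and the dashed line marks the median over all Transcript clusters, -0.07. Cytosolic ribosomal proteins had a median of 0.81 and olfactory receptors one of -0.11.

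Antigen presentation genes, among them genes of the dog leukocyte antigen (DLA) complex, the major histocompatibility complex of dogs, showed wide differences with strong spread. Of 17 measured, 14 were higher in Golden Retriever tumours, 8 of them and none of the lower ones at an unadjusted p under 0.05, with a median difference of 0.72. With the share above log2 4 as a covariate 4 were higher at that level and the median was 0.25, and in NM tumours only these were 1 and 0.31. The class II chain DLA-DRA was at 1.32, 1.73 and 1.89 in Labrador Retriever M tumours and at 2.54 and 1.75 in NM tumours, against a lowest value of 2.26, a median of 5.95 and a highest of 7.19 in Golden Retriever tumours. In 6 of 8 Golden Retriever tumours it lay at 5.31 or above, while M replicate 14 and NM replicate 9, at 2.57 and 2.26, lay near the Labrador Retriever range. The difference was 3.5 ± 0.82 on the log2 scale (adjusted p = 0.0989).

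The class II peptide-loading chain DLA-DMA was at 2.68 to 4.68 in Labrador Retriever and 4.16 to 6.70 in Golden Retriever tumours (difference 1.83, adjusted p = 0.105). The classical class I gene DLA88 was at 1.93 to 2.48 against 2.28 to 5.76 (difference 1.82, adjusted p = 0.106), and the class I-like gene DLA-79 at 1.26 to 1.79 against 1.62 to 3.39 (difference 1.0, adjusted p = 0.0989). None passed the threshold. DLA genes are highly polymorphic between dogs and similar to each other, so how well the probes match each dog's alleles was not tested.

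Markers of leukocytes did not move as 1 group. Of 15 macrophage and dendritic cell genes, 3 were higher and 1 lower at an unadjusted p under 0.05 (median difference 0.16). CTSS, the lysosomal protease that trims the class II invariant chain, was at 2.85 to 3.53 in Labrador Retriever and 3.32 to 4.54 in Golden Retriever tumours (difference 0.94, adjusted p = 0.11), and the mannose receptor MRC1 had a difference of 1.46 (adjusted p = 0.159). CD14, the monocyte co-receptor for lipopolysaccharide, had one of -0.27. The mean level of this list was 1.77 to 2.39 in Golden Retriever and 1.79 to 1.94 in Labrador Retriever tumours.

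Among 12 B and plasma cell genes, 3 were higher and 9 lower, 2 each way at an unadjusted p under 0.05. JCHAIN, the joining chain of secreted antibody, was at 2.29, 2.23 and 3.24 in Labrador Retriever M and 2.52 and 3.0 in NM tumours, against a lowest value of 2.66, a median of 4.84 and a highest of 6.09 in Golden Retriever tumours (difference 1.99 ± 0.51, adjusted p = 0.112). CD79A, of the B cell receptor, had a difference of -0.34. Of 16 T and NK cell genes, 6 were higher and 10 lower (median difference -0.07, and 0.019 with the covariate). At an unadjusted p under 0.05, 2 were higher and 1 lower. CCL5, a chemokine of cytotoxic cells, had a difference of 1.07 (adjusted p = 0.171) and CD3E one of 0.28 (adjusted p = 0.246). The lower one was GZMB, a protease of cytotoxic cells, at -0.33 (adjusted p = 0.189). Of 9 neutrophil genes, 5 were higher and 4 lower, with 0 higher and 1 lower at an unadjusted p under 0.05. That one was MMP9 (difference -0.30, adjusted p = 0.158). S100A9 was at 1.64 to 5.98 in Labrador Retriever and 3.01 to 8.19 in Golden Retriever tumours (difference 2.01, adjusted p = 0.223). Of 26 interferon response genes, 18 were higher, 5 of them at an unadjusted p under 0.05 (median difference 0.13, and -0.0078 in NM tumours only). OAS2, an interferon-induced RNA sensor, had a difference of 1.93 among M and 0.39 among NM tumours, and the difference between these was not past the threshold of the interaction test.

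Melanocyte genes were compared next. Of 12 lineage regulators, 10 were higher in Golden Retriever tumours, 3 higher and 1 lower at an unadjusted p under 0.05 (median difference 0.62). With the share above log2 4 as a covariate the direction turned, with 5 of 12 higher, 0 at that level, and a median of -0.079. ERBB3, a receptor for neuregulins, was at 2.19, 1.89 and 1.93 in Labrador Retriever M tumours and at 1.81 and 2.15 in NM tumours, against a lowest value of 1.3, a median of 3.82 and a highest of 4.61 in Golden Retriever tumours. All 4 Golden Retriever M tumours lay at 3.66 or above, while the NM tumours ran from 1.3 to 3.92. The difference was 1.59 ± 0.41 on the log2 scale (adjusted p = 0.112).

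MITF, the master regulator of pigment cells, was at 2.24 to 2.87 in Labrador Retriever and 2.31 to 5.87 in Golden Retriever tumours (difference 1.35, adjusted p = 0.196). SOX10, which acts upstream of MITF, lay in the opposite direction, at 2.86 to 3.80 against 2.36 to 3.18 (difference -0.56, adjusted p = 0.142). ZEB2, a transcription factor of differentiated melanocytes, had a difference of 1.10 (adjusted p = 0.196). None of these 4 regulators passed the threshold, and the values of the breeds overlapped for each.

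Of 18 genes of melanosomes and pigment synthesis, 14 were higher and 4 lower in Golden Retriever tumours, 1 higher at an unadjusted p under 0.05 (median difference 0.41). The direction turned with the covariate (6 higher, 12 lower, median -0.18) and in M tumours only (median -0.032). Pigment enzymes differed more between tumours of 1 breed than between breeds. TYRP1, which oxidises an intermediate of eumelanin, was at 1.22, 1.23 and 8.13 in Labrador Retriever M tumours and at 1.54 and 1.04 in NM tumours, and its Golden Retriever values had a lowest of 1.04, a median of 1.75 and a highest of 7.72 (difference 0.63 ± 1.59, adjusted p = 0.821). A single Labrador Retriever tumour, M replicate 7, was thus high, as were Golden Retriever NM replicates 2 and 3. The same Labrador Retriever tumour was highest of its breed for TYR, the first enzyme of melanin synthesis, at 4.02, for DCT at 6.45 and for MLANA at 4.22. The breed differences of TYR, DCT, MLANA and PMEL were 0.29, 0.82, 0.29 and 0.55, with adjusted p-values of 0.53 or more.

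Genes at loci known for coat colour, coat type and body size in dogs were described because dog breeds have been selected for such traits. Of 25 measured, 13 were higher and 12 lower in Golden Retriever tumours, 0 higher and 2 lower at an unadjusted p under 0.05, and the median difference was 0.07. The sign of this median turned in several fits, with the covariate (-0.032) and in M tumours only (-0.026) among them. MC1R, the melanocortin receptor of the coat colour extension locus, was at 1.44 to 2.27 in Labrador Retriever and 1.26 to 1.81 in Golden Retriever tumours (difference -0.17 ± 0.15, adjusted p = 0.481). FGF5, a regulator of hair length, had a difference of -0.24 (adjusted p = 0.354), MLPH, of the dilution locus, one of -0.19 (adjusted p = 0.344) and CBD103, the beta-defensin of the dominant black locus, one of 0.44 (adjusted p = 0.471). All of these overlapped between the breeds, and an array of this kind reads expression and not the alleles that differ between breeds.

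**Figure D5:**
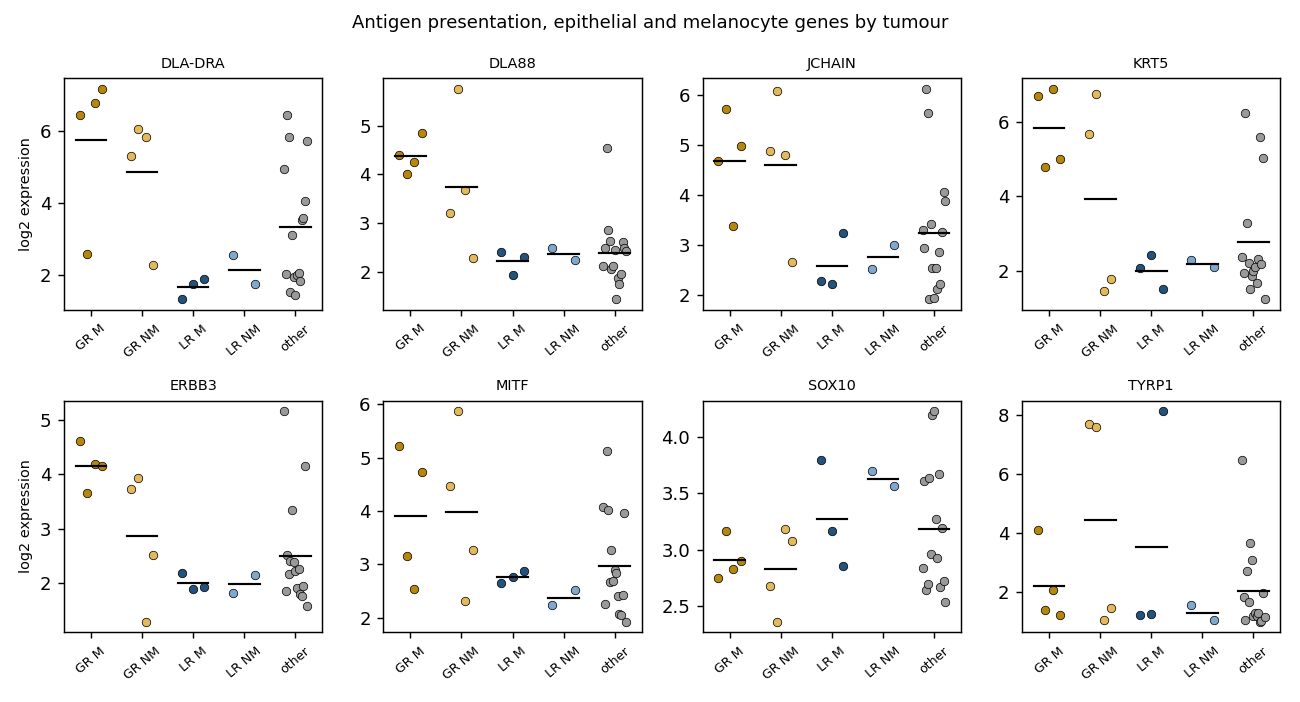
Log2 expression (vertical axes) of antigen presentation, plasma cell, epithelial and melanocyte genes in Golden Retriever (GR) and Labrador Retriever (LR) tumours by metastatic status and in the other 15 tumours, 1 point per tumour with the mean of each group as a bar. DLA-DRA lay at 5.31 or above in 6 of 8 GR tumours and at 2.54 or lower in all LR tumours, whereas TYRP1 was high in single tumours of both breeds.

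Genes of melanoma signalling and of other cell types in the biopsies were examined last. Of 20 melanoma driver and cell cycle gatekeeper genes, 14 were higher in Golden Retriever tumours, 5 higher and 1 lower at an unadjusted p under 0.05 (median difference 0.43, and 0.097 with the share above log2 4 as a covariate). PTPRJ, a receptor tyrosine phosphatase, was at 3.18 to 4.64 in Labrador Retriever and 3.49 to 7.46 in Golden Retriever tumours (difference 1.52, adjusted p = 0.138). BRAF, a kinase of the MAP kinase pathway, was at 1.78 to 2.36 against 1.87 to 3.98 (difference 1.2, adjusted p = 0.126), and its breed difference was 1.2 in both M and NM tumours. AKT1, a kinase downstream of PI3K, had a difference of 0.59 (adjusted p = 0.135).

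Of 23 genes of oral epithelium, 18 were higher in Golden Retriever tumours, 4 higher and 1 lower at an unadjusted p under 0.05 (median difference 0.56). KRT5, a keratin of basal epithelium, was at 2.09, 2.42 and 1.51 in Labrador Retriever M tumours and at 2.29 and 2.09 in NM tumours. In Golden Retriever tumours its lowest, median and highest values were 1.47, 5.34 and 6.87. KRT5 lay at 4.79 or higher in 6 Golden Retriever tumours and at 1.47 and 1.79 in the other 2, NM replicates 6 and 9 (difference 2.91 ± 0.88, adjusted p = 0.132). The adhesion gene JUP had a difference of 1.05 and CDH1, the epithelial cadherin, one of 0.59. The cornified envelope gene EVPL had one of -0.33, and the lowest difference in the list was -1.15. The mean level of the list was 1.61 to 3.73 in Golden Retriever and 1.62 to 2.45 in Labrador Retriever tumours, and its part in the differences of the other lists was not tested. With the share above log2 4 as a covariate the median of the epithelial list was 0.043.

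Stromal and other lists differed less. Of 23 fibroblast and collagen genes, 19 were higher in Golden Retriever tumours but 0 at an unadjusted p under 0.05 (median difference 0.21). With the share above log2 4 as a covariate the direction turned, with 6 higher and 17 lower and a median of -0.27. COL1A1, a collagen chain, had a difference of 0.11 ± 0.84. Of 15 endothelial genes, 9 were higher and 6 lower (median difference 0.02, and -0.011 with the covariate). At an unadjusted p under 0.05, 2 were higher and 1 lower. EMCN had a difference of 1.21 (adjusted p = 0.15) and PECAM1 one of 0.88 (adjusted p = 0.263). In the other direction, ROBO4 had one of -0.26 (adjusted p = 0.206) and EGFL7 one of -0.40 (adjusted p = 0.242). Of 38 proliferation genes, 27 were higher, 1 at an unadjusted p under 0.05 (median difference 0.07). Of 23 hypoxia and glycolysis genes, 17 were higher, 3 at that level (median difference 0.21), and LDHA had a difference of 0.72 (adjusted p = 0.217). Of 16 Schwann-like and neural crest genes, 4 were higher and 12 lower, 5 of the lower ones at an unadjusted p under 0.05 (median difference -0.14), with GFAP at -0.37 and S100B at -0.33, both at a log2 value of 2.02 or lower in all 13 tumours. Of 23 immediate early and stress genes, 5 were higher and 1 lower at that level, among them the chaperone HSP90AA1 with a difference of 1.49 (adjusted p = 0.138). Of 14 skeletal muscle genes, 8 were higher (median difference 0.03, and -0.16 in NM tumours only).

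A further set of genes, SLC66A2, CXCL12, RBM3, ADAM10, SLC25A51 and DPM2, was read by breed whatever their values. SLC66A2, a membrane protein, was at 2.10, 2.38 and 2.75 in Labrador Retriever M tumours and at 2.92 and 2.68 in NM tumours, against a lowest value of 2.71, a median of 3.96 and a highest of 4.58 in Golden Retriever tumours (difference 1.16 ± 0.24, adjusted p = 0.0901). Its difference was 1.06 among M and 1.28 among NM tumours. The chemokine CXCL12 had a difference of 0.66 (adjusted p = 0.218), the cold-induced RNA-binding protein RBM3 one of -0.66 (adjusted p = 0.29) and the sheddase ADAM10 one of 0.46 (adjusted p = 0.411). The mitochondrial carrier gene SLC25A51 had a difference of -0.22 (adjusted p = 0.609) and DPM2 one of -0.06 (adjusted p = 0.9). Of these genes, SLC66A2 lay nearest to the threshold and did not pass it.

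Whether the breed difference was unlike in M and NM tumours was tested by the interaction of breed with status. It passed the threshold for 2 Transcript clusters, 0.00617% of all tested, and 3.54% (1147) had an unadjusted p under 0.05. Both carry no gene symbol. Transcript cluster 14439497 was at 1.61, 1.29 and 1.6 in Labrador Retriever M tumours but at 5.02 and 4.77 in the 2 NM tumours, and between 0.92 and 1.49 in all 8 Golden Retriever tumours (interaction 3.37 ± 0.25, adjusted p = 0.000768). Transcript cluster 14264352 was at 1.35, 2.30 and 3.0 in Labrador Retriever M tumours and at 8.39 and 6.78 in the NM tumours, and between 5.47 and 6.93 in all Golden Retriever tumours (interaction 6.03, adjusted p = 0.0200). At the first, the 2 Labrador Retriever NM tumours lay far above all the rest. At the second, the 3 Labrador Retriever M tumours lay below all Golden Retriever tumours, and of the NM tumours 1 lay above them and 1 among them. The other 15 tumours of the series ranged from 0.91 to 2.98 for the first and from 0.76 to 10.00 for the second.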

How the data were processed

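The authors extracted total RNA from FFPE sections and hybridised 1 canine gene array per tumour. They processed the arrays with Affymetrix Expression Console 1.3 (per the submitters' processing notes), left out arrays whose quality metrics were outlying, and summarised probe signals by RMA with quantile normalisation. The values the authors deposited are gene-level log2 expression values for 32391 Transcript clusters and 28 arrays. Quantile normalisation forces arrays to similar distributions, and low values carry little signal over background. The authors' filter on detection above background was not repeated here. Arrays have no counts, so the number of tumours limits the precision. Gene symbols came from GEO's annotation of the array: 16878 Transcript clusters had 1 symbol, 289 several and 15224 none. Of all rows, 2686 shared every value with another.

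Groups came from the breed and metastatic status in the labels. The 13 tumours were fitted with limma 3.58.1 in R 4.3.3, with breed and status in the model and Benjamini-Hochberg adjustment over all Transcript clusters, at a threshold of 0.05. The fit was tested on simulated data first. Array-level measures were tested by exact permutation of breed within status, with 525 arrangements and a smallest possible p of 0.0019. Summaries and figures used Python 3.11.15, pandas 2.3.3 and matplotlib 3.10.9.

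Genes were named by rule: the 15 lowest p-values in either direction among singly annotated, brighter Transcript clusters (mean over the median), at most 4 members per list, again by p, and a set of coat, melanocyte, cell type and earlier discussed genes whatever their values. Not every gene that qualified is described. A gene with several Transcript clusters was read at the one with the highest mean. The tumours, the lists and the rule were chosen with earlier results of these data known. Nothing in the labels gives a scan or extraction batch, and none was modelled. The limma p-values set a difference against the spread between tumours that was left after breed and status were fitted. Those of the array measures came from the permutation of breed within status. Alternatives were another choice of samples, covariates, variance model, scaling and filter, and each tumour left out.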

Additional observations from a re-analysis of the deposited data

Results flagged for a closer look

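A total of 168 sets of values, 80 genes or Transcript clusters and 4 array measures in each breed, were searched for a tumour far from the others of its breed. This found 9, or 5.36%, where chance gives about 1 in 20. Of the 9, 5 belonged to Labrador Retriever M replicate 7, of which 4 are pigment genes: TYRP1 at 8.13 (the others from 1.04 to 1.54), MLANA at 4.22 (1.56 to 1.85), TYR at 4.02 (1.02 to 1.64) and DCT at 6.45 (2.46 to 3.38). The fifth was OR4C1 at 1.81 (1.59 to 1.62). Labrador Retriever M replicate 5 was high for MLLT3 at 1.5 (1.26 to 1.31) and for NFKBID at 2.48 (1.95 to 2.06). In Golden Retriever tumours, M replicate 14 was low for RPL6 at 7.43 (8.11 to 8.70) and M replicate 8 was low for Transcript cluster 14402133 at 1.46 (1.99 to 2.26).

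The breed difference was unlike in M and NM tumours, by the interaction test, for Transcript clusters 14264352 (interaction 6.03, with a breed difference of 4.34 among M and -1.69 among NM tumours) and 14439497 (interaction 3.37, with -0.33 among M and -3.70 among NM tumours). At 14439497 the 2 Labrador Retriever NM tumours lay apart from all the rest. At 14264352 the 3 Labrador Retriever M tumours lay below all Golden Retriever tumours.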

How the results depend on the processing

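No paired analysis was possible because the replicate numbers only name tumours from different dogs and the breed groups within a status share fewer than 2 of them. The 7 breed differences at an adjusted p under 0.05 became 250 with all 28 tumours in the fit (6 of the 7 among them) and 3988 with array weights, which gave Golden Retriever M replicate 14 the lowest weight, 0.44. The count was 1 with the share above log2 4 as a covariate, 16 with M tumours only, 3 with NM tumours only, 2 with limma's trend, 3 with limma's robust option, 4 after a further quantile normalisation, 1 among Transcript clusters with 1 gene symbol and, in a fit chosen after seeing the data, 1 with Golden Retriever arrays inside the Labrador Retriever range of that share. An unpaired t-test without status called 7049 at an unadjusted p under 0.05. After Benjamini-Hochberg adjustment it called 5, 1 higher and 4 lower, of which 2 were among the 7. The authors used an unpaired t-test with adjustment by permutation, which was not repeated here. Leaving out each tumour gave from 1 to 2339, and all 13 counts were more than 1.5 times above or below 7. The interaction count of 2 became 1 with limma's trend. The cause of these changes was not tested.

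Median differences of lists moved in the covariate fit, and then in the fit of arrays inside that range, to 0.41 and 0.47 for cytosolic ribosomal proteins, 0.17 and 0.13 for oxidative phosphorylation, 0.17 and 0.14 for translation factors, 0.19 and 0.12 for the proteasome and -0.035 and -0.029 for olfactory receptors, and they reversed to -0.18 and -0.063 for melanosome genes and to -0.079 and -0.12 for lineage regulators. The melanosome median was -0.032 in M tumours only. The antigen presentation median was 0.22 in the fit inside the range. The olfactory receptor median was -0.35 among the brightest 40% and -0.27 among those with a mean above the median. They also reversed, in the same order, to -0.27 and -0.33 for fibroblast genes, -0.032 and -0.023 for coat and size loci, -0.011 and -0.027 for endothelial genes and 0.019 and 0.068 for T and NK cell genes, and moved to 0.097 and 0.054 for melanoma drivers. Inside the range the muscle median was -0.056. In M tumours only the coat median was -0.026 and the stress gene median 0.25. In NM tumours only the medians were -0.011 for endothelial, -0.16 for muscle, -0.0078 for interferon and -0.041 for stress genes. Among the brightest 40% they were 0.60 for coat, 0.30 for mitochondrial ribosomal, 0.54 for endothelial, 1.10 for neutrophil, -0.032 for muscle and 0.26 for stress genes, and among those with a mean above the median 0.43 for coat, 1.10 for neutrophil, -0.032 for muscle and 0.21 for stress genes. Array weights put the neutrophil median at -0.023. With 1 tumour left out the medians ranged from -0.0033 to 0.11 for coat, -0.016 to 0.075 for endothelial, -0.031 to 0.27 for neutrophil, -0.12 to 0.089 for muscle and -0.039 to 0.19 for stress genes. Each of the other medians of the 24 lists described kept its sign, as did the array measures under each alternative run. Each moved by less than 1 residual SD, the spread between tumours left in the list mean or measure after fitting breed and status. This spread is wide for some lists: the oral epithelium median was 0.043 with the covariate.

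Of 80 named genes and Transcript clusters followed through the alternatives, 12 changed direction somewhere. GZMB, MMP9, ROBO4, EGFL7, SLC25A51 and DPM2 were not among the 80. In the covariate fit PMEL was at -0.95, TYRP1 -1.92, TYR -0.66, DCT -0.29, MLANA -0.77, COL1A1 -1.17, PECAM1 -0.011 and ADAM10 -0.22. Inside the range PMEL was at -0.72, TYRP1 -0.94, TYR -0.45, DCT -0.049, MLANA -0.34, COL1A1 -0.82, PECAM1 -0.19, ADAM10 -0.21 and ZEB2 -0.16. In M tumours only PMEL was at -0.28, TYRP1 -1.33, TYR -0.21, MLANA -0.41 and MC1R 0.077. In NM tumours only Transcript cluster 14264352 was at -1.69, MLPH 0.029, COL1A1 -0.33 and ADAM10 -0.030. After a further quantile normalisation COL1A1 was at -0.10. With 1 tumour left out TYR ranged from -0.044 to 0.78, MLANA from -0.035 to 0.80, MC1R from -0.24 to 0.013 and COL1A1 from -0.30 to 0.72. No named gene had several Transcript clusters, so that alternative gave no value.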
